A study of Rattus norvegicus with 9 samples.

Results

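The collagen genes of rat hippocampal cultures are described here, across cultures that received vehicle, NPCT or PCT. The members are all protein-coding genes of the deposited table whose symbol has the collagen form (Col, a type number, a, a chain number) and that were above 0 in at least 3 of the 9 libraries. This gave 43 genes of the 34092 in the table, of which 22250 are protein coding. Another gene matches by letters only, Col4a3bp, which encodes a ceramide transfer protein, and it was left out. The cultures were dissociated cells of wild type (WT) fetal hippocampi from embryonic day 17, labelled as primary hippocampal neurons, and all were grown in neurobasal medium with B27. At 7 days in vitro they were incubated for 24 h with vehicle (Control), with 1 nM of human NPCT, the amino-terminal peptide of procalcitonin, or with 1 nM of human PCT, the parent peptide. Each group had 3 libraries, with 13573056 to 17211642 assigned fragments each. The methods speak of pooled samples of biological triplicates and the labels number 3 replicates, so the p-values measure the spread between these libraries, which may be technical. Libraries of 1 group differed by more than sampling. The chi-square of their fragments per degree of freedom was 4.16 to 4.97 in the Control pairs. It was 4.38 for NPCT replicates 1 and 2 and 10.6 and 10.8 in the pairs with NPCT replicate 3. For PCT replicates 1 and 2 it was 6.38, and 18.9 and 21.6 in the pairs with PCT replicate 3. Replicate 3 of NPCT and replicate 3 of PCT thus stood apart from the other libraries of their groups.

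Collagens are secreted proteins in which chains wind into a triple helix, and each chain has a gene of its own. Fibrillar collagens (types I, II, III, V, XI and their relatives) build fibrils, type IV builds the network of basement membranes, and type VI builds beaded filaments at cell surfaces. FACIT collagens attach to fibrils, transmembrane collagens sit in the plasma membrane, and the multiplexin XVIII is a basement membrane collagen whose carboxyl end is released as endostatin. In brain tissue the fibrillar types are known mainly from meninges and vessel walls and type IV from the vascular basement membrane. In the deposited table the gene count by class was 11 fibrillar, 8 basement membrane, 9 FACIT and related, 5 beaded filament, 4 transmembrane, 3 short-chain network and 3 other genes.

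The type IV genes lie in pairs that face away from each other, and the Col4a1 and Col4a2 pair is shown because these chains share a promoter and diverged in level in the results. In RefSeq on GRCr8 their start sites were 76 bases apart and the whole stretch in between, chr16:84885521-84885596, is printed on the strand of Col4a1. The windows of 250 bases before the starts of Col6a1 and Col18a1, chr20:11905440-11905689 and chr20:11473395-11473644, both on the plus strand, are shown because the first of these genes fell and the second rose with PCT. The positions of the deposited table are on another build (Rnor_6.0 in the submitters' processing notes) and place the gene models of Col4a1 and Col4a2 further apart, with 83600 bases between them. Capitals mark the letters of the motifs searched.
Col4a1 and Col4a2, shared stretch: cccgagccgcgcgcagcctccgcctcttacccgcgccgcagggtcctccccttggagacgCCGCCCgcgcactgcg
Col6a1: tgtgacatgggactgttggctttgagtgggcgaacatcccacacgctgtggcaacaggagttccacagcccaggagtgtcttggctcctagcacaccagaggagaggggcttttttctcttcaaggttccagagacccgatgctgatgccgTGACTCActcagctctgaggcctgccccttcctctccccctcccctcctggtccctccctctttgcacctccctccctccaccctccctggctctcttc
Col18a1: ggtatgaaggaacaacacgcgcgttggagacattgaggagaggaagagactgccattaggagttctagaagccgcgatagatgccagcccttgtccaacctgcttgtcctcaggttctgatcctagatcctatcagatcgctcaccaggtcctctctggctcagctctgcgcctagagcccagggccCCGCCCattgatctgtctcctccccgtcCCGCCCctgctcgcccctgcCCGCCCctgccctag

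The motifs searched on both strands were TATAAA of the core promoter, the element CCAAT, the GC box with the letters GGGCGG, which reads CCGCCC on the other strand, and the AP-1 motif TGANTCA, where N is any base. None of the 4 contains another. RefSeq held a window for 34 of the 43 genes, on GRCr8, and Col3a1, Col6a2 and Col9a3 were among those with none. The GC box was in 19 of these 34 windows (55.9%) and in 30.5% of all 33469 windows of the table. TATAAA was in 11.8% of the collagen windows and 12.9% of all, CCAAT in 32.4% and 34.0%, and TGANTCA in 2.94% and 6.34%, the last in Col6a1 alone. The median GC content was 59.0% in the collagen windows and 51.2% in all windows. The collagen windows are 1 per gene and of protein-coding genes. All windows were taken without such limits, and some genes have more than 1, so these shares are of unlike sets. The stretch between Col4a1 and Col4a2 held 78.9% GC and 1 GC box, the window of Col18a1 3 GC boxes and that of Col6a1 none. A match describes letters in the window and no binding was measured.

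Collagen transcripts made up a small part of the RNA. Summed over the 43 genes, the level was 209, 209 and 217 FPKM in the controls, 245, 242 and 257 with NPCT and 149.5, 171 and 199.6 with PCT. FPKM are fragments scaled to the length of the gene and the depth of the library, so levels of different genes can be added and compared. The 3 NPCT libraries lay above the 3 controls and the 3 PCT libraries below them, with PCT replicate 3 nearest to the controls. As a share of all fragments, collagen genes took 0.109 to 0.112% in Control, 0.129 to 0.131% with NPCT and 0.0779 to 0.107% with PCT. These are bulk samples, in which fewer cells of a type and less RNA per cell cannot be told apart.

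The basement membrane class stood highest. Its sum was 82.0, 80.1 and 85.7 FPKM in the controls, 95.3, 93.6 and 96.8 with NPCT and 58.2, 61.5 and 74.6 with PCT. Type IV chains alone gave 37.5 to 38.8% of the collagen sum in Control, 36.6 to 38.0% with NPCT and 33.8 to 37.0% with PCT. Fibrillar collagens came next, with 64.6, 63.7 and 63.6 FPKM in the controls, 70.7, 68.9 and 60.5 with NPCT and 49.2, 60.2 and 66.1 with PCT. The FACIT class stood at 28.8, 30.8 and 29.9 FPKM in the controls, 41.0, 40.5 and 43.5 with NPCT and 23.5, 25.7 and 33.0 with PCT. For FACIT genes the NPCT libraries lay above all other libraries. Beaded filament genes were at 24.2, 22.9 and 23.9 FPKM in the controls, 24.6, 26.9 and 39.2 with NPCT and 8.98, 12.3 and 12.4 with PCT. In that class the PCT libraries lay far below both other groups, and NPCT replicate 3 stood above the other two NPCT libraries. The transmembrane class summed to 6.32 to 12.6 FPKM, the short-chain class to 1.15 to 2.87 FPKM and the other genes to 1.09 to 1.74 FPKM over the 9 libraries.

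**Figure D1:**
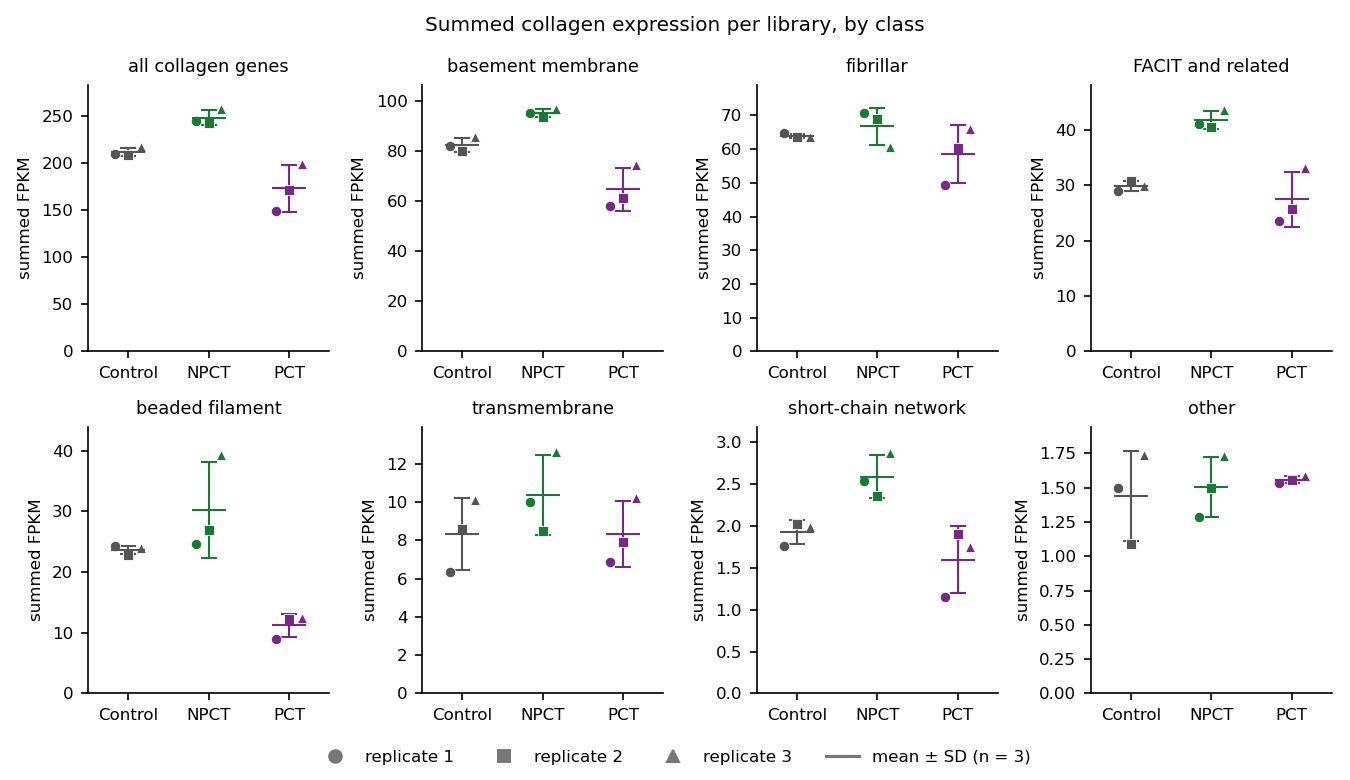
Summed FPKM (vertical axis, from 0) of all 43 collagen genes and of each class in the 9 libraries, by group; symbols mark the replicate numbers, and the long line with bars is the mean ± SD (n = 3). The 3 PCT libraries lie lowest in the beaded filament panel, between 8.98 and 12.4 FPKM, and the 3 NPCT libraries lie highest in the FACIT panel, between 40.5 and 43.5 FPKM.

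A mean above 10 FPKM was found for 6 genes, and 18 lay between 1 and 10 FPKM. The 5 highest (Col4a2, Col5a3, Col4a1, Col4a5 and Col16a1) gave 51.7 to 58.2% of the collagen sum in the 9 libraries. In all, 38 of the 43 genes were above 0 in every library. For the tests, genes with a mean of at least 0.5 FPKM over the 9 libraries were used, 15958 genes of the table in all and 27 of the 43 collagen genes. A gene is called when its adjusted p (limma on log2(FPKM + 0.1), Benjamini-Hochberg over the 15958 genes) was at most 0.05 and its fold change was above 1.5. The fold changes are on the log2(FPKM + 0.1) scale, which understates changes of genes with low values.

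With NPCT, none of the 27 collagen genes was called against Control, where 0.219% of all genes tested were called. An unadjusted p under 0.05 was found for 8 of them (29.3% of all genes tested), and the smallest adjusted p was 0.0724, for Col16a1 (limma). Over all genes tested the smallest adjusted p was 0.0493 (limma). The share of 0.219% thus rests on adjusted p just under the cutoff and is no measure of how much NPCT changed. With DESeq2 the paper reported more genes changed by NPCT than were called here. Limma-voom on the fragments behind the FPKM called 2, Col9a3 and Col11a2, and a fit of the 2 groups alone called 1. The share of 0.219% is that of the main fit, and the shares of these other fits are not given here. The direction was nonetheless uneven, with 21 of the 27 log2 fold changes above 0 and a median of 0.20, beside 0.0062 over all genes tested. In 10 genes the 3 NPCT libraries all lay above the 3 controls (20% of all genes tested did) and in 2 all below (20.3%), so that 12 genes had groups without overlap, beside 40.3% of all. The highest of the 10 by level were Col4a2, Col4a5, Col16a1 and Col6a1, and the 2 lower ones were Col5a2 and Col12a1.

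With PCT, 6 of the 27 collagen genes were called against Control (22.2%), beside 2.31% of all genes tested. Of these, 4 fell (Col4a1, Col6a1, Col6a2 and Col9a3), beside 1.72% of all genes, and 2 rose (Col3a1 and Col18a1), beside 0.589%. The count of 6 became 2 without Control replicate 1 or 3 and 3 without Control replicate 2 or PCT replicate 2. The share of 2.31% is that of the fit to all libraries, and shares without a library are not given here. The median log2 fold change of the 27 genes was -0.077, beside 0.0046 over all genes. In 9 genes the PCT libraries all lay below the controls, beside 11.9% of all genes, and in 3 all above, beside 13.1%, which together is 12 of 27 beside 24.9%. Both comparisons use the same 3 control libraries, so their fold changes are not independent of each other.

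Between the peptides, 8 of the 27 genes were called in NPCT against PCT (29.6%), beside 5.76% of all genes tested. Of these, 6 were higher with NPCT (Col4a1, Col6a1, Col6a2, Col8a1, Col9a3 and Col11a2), beside 4.38% of all genes, and 2 were lower (Col3a1 and Col18a1), beside 1.38%. The count of 8 became 5 without NPCT replicate 1 or 2 and 4 without PCT replicate 2 or in the fit of the 2 groups alone. The share of 5.76% is that of the main fit, and the shares of these other fits are not given here. A further 3 genes, Col4a2, Col4a5 and Col5a3, passed the adjusted p but had a fold change under 1.5, which makes 11 of 27 at that adjusted p beside 16.3% of all genes. The median log2 difference was 0.30, beside -0.0076 over all genes. The groups did not overlap in 15 genes, 12 with NPCT higher (15.4% of all genes) and 3 with NPCT lower (18% of all genes), beside 33.4% of all genes in either direction. With 3 libraries against 3, an exact permutation test of 1 gene cannot give a p below 0.1, so the tests rest on the variance shared across genes in limma.

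**Figure D2:**
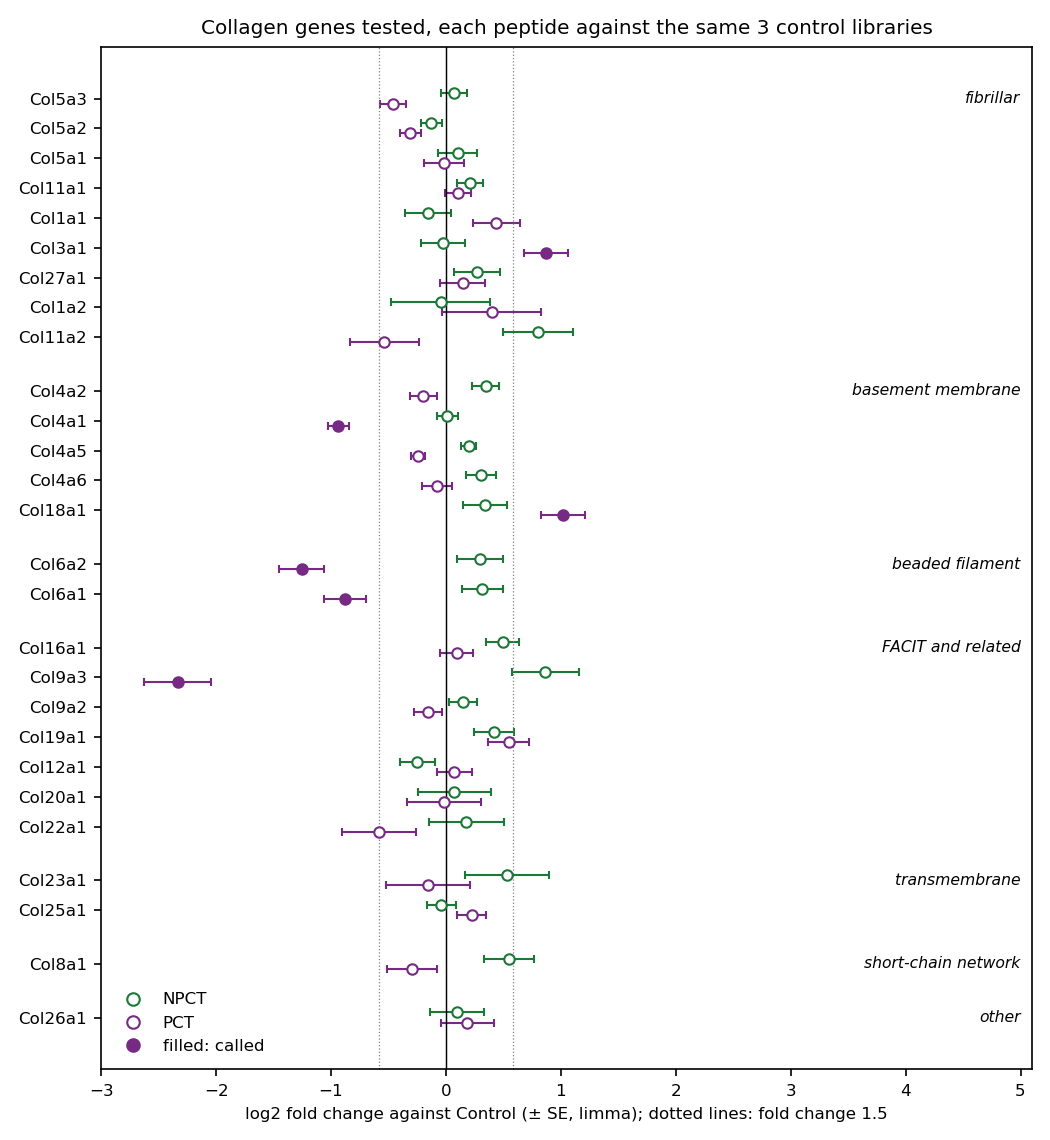
Log2 fold change against Control (horizontal axis, ± SE from limma) of the 27 collagen genes tested, for NPCT (green) and PCT (purple), by class and within a class in order of mean level; filled points are called and dotted lines mark a fold change of 1.5. The filled points are all of PCT, 4 to the left and 2 to the right, and most green points lie to the right of 0.

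Among the basement membrane genes the chains of the most widespread type IV network, Col4a1 and Col4a2, moved apart. Col4a1 (ENSRNOG00000016281, chr16:83522162-83632153 on the plus strand) was at 27.6, 25.6 and 27.5 FPKM in the controls, 27.0, 27.0 and 27.4 with NPCT and 12.9, 13.0 and 16.3 with PCT. Controls and NPCT overlapped and each PCT library lay below them all. With PCT the gene fell by 0.94 ± 0.092 (SE) on the log2 scale, 1.92-fold (limma, adjusted p = 0.0012), and NPCT against PCT gave 0.95 ± 0.092 (SE, adjusted p = 0.000701, limma). Both calls held in every one of 18 alternative settings, with adjusted p up to 0.0104 and 0.0112. Col4a2 (ENSRNOG00000023972, chr16:83387364-83438561 on the minus strand) was at 26.8, 26.6 and 29.0 FPKM in the controls, 37.0, 32.8 and 35.0 with NPCT and 21.0, 22.1 and 29.3 with PCT. All NPCT libraries lay above the controls, whereas PCT replicate 3 lay above them and the other 2 PCT libraries below. Against Control its log2 fold change was 0.35 ± 0.12 (SE, adjusted p = 0.0982, limma) with NPCT and -0.20 ± 0.12 (SE, adjusted p = 0.41, limma) with PCT. NPCT against PCT gave 0.54 ± 0.12 (SE, adjusted p = 0.0186, limma), under the fold threshold, and 0.69 (adjusted p = 0.000803) without PCT replicate 3, which passes it.

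The ratio of the FPKM of Col4a1 to that of Col4a2 was 1.03, 0.962 and 0.949 in the controls, 0.729, 0.822 and 0.784 with NPCT and 0.613, 0.588 and 0.556 with PCT. No library of one group fell within the range of another, and the order was Control, NPCT, PCT. In Control the pair was thus at near equal levels per length. With NPCT the lower ratio went with a higher Col4a2 and with PCT with a lower Col4a1. The lengths of the 2 genes are those of the table, 6579 and 4938 bases.

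The remaining type IV genes encode chains of other type IV networks. Col4a5 (ENSRNOG00000018951, chrX:112769645-112983685 on the plus strand), which is mutated in Alport syndrome, was at 20.2, 20.4 and 21.0 FPKM in the controls, 22.4, 24.1 and 24.3 with NPCT and 16.3, 17.5 and 18.2 with PCT. NPCT libraries lay above the controls and PCT libraries below, by small amounts. The log2 fold change was 0.20 ± 0.065 (SE, adjusted p = 0.0882, limma) with NPCT and -0.24 ± 0.065 (SE, adjusted p = 0.0762, limma) with PCT, and NPCT against PCT gave 0.44 ± 0.065 (SE, adjusted p = 0.00438, limma), a 1.36-fold difference. Its partner gene Col4a6 was at 4.75 to 7.04 FPKM, and the ratio of Col4a5 to Col4a6 was 2.95 to 4.09 with all groups overlapping. The Col4a3 and Col4a4 pair was under 0.5 FPKM in every library.

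Col18a1 (ENSRNOG00000001229, chr20:12225202-12332858 on the plus strand), which encodes the multiplexin that releases endostatin, was called higher with PCT, whereas Col4a1 was called lower. It was at 1.85, 1.61 and 1.45 FPKM in the controls, 1.76, 2.10 and 2.44 with NPCT and 2.76, 3.67 and 3.86 with PCT. The PCT libraries lay above all others, and those of NPCT overlapped the controls. With PCT it rose by 1.02 ± 0.19 (SE) on the log2 scale, 2.02-fold (limma, adjusted p = 0.0229). This call was lost without any 1 of the controls (adjusted p = 0.0599 to 0.0873) and without PCT replicate 2 (0.0818) or 3 (0.0560). NPCT against PCT gave -0.68 ± 0.19 (SE, adjusted p = 0.043, limma), a call lost in 12 of 18 alternative settings, with adjusted p from 0.0401 (with a pseudocount of 1, where the fold fell under the threshold) to 0.132 in those 12, among them each omission of a control, of an NPCT library and of PCT replicate 2 or 3.

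The beaded filament genes Col6a1 and Col6a2, near each other on chromosome 20 with 1 other gene and 97865 bases between them, fell together with PCT. Col6a2 (ENSRNOG00000001254, chr20:12773427-12801180 on the plus strand) was at 14.2, 13.7 and 14.1 FPKM in the controls, 13.5, 15.4 and 24.8 with NPCT and 5.02, 6.24 and 6.26 with PCT. The PCT libraries lay far below every other library, and NPCT replicate 3 lay far above the other 2. With PCT the gene fell by 1.26 ± 0.20 (SE) on the log2 scale, 2.39-fold (limma, adjusted p = 0.0114), and the adjusted p was 0.0555 without Control replicate 1 and 0.0516 without Control replicate 3. Between the peptides the log2 difference was 1.56 ± 0.20 (SE, adjusted p = 0.00278, limma), called in all 18 alternatives. Col6a1 (ENSRNOG00000001249, chr20:12658065-12675561 on the plus strand) was at 9.39, 8.56 and 9.39 FPKM in the controls, 10.2, 10.4 and 13.8 with NPCT and 3.67, 5.64 and 5.70 with PCT. Its groups did not overlap in any comparison. With PCT it fell by 0.88 ± 0.18 (SE) on the log2 scale (limma, adjusted p = 0.0314). That call was lost in 7 of 18 alternatives, with adjusted p of 0.0844 to 0.121 without any 1 control, 0.0510 without NPCT replicate 2 and 0.0506 without PCT replicate 2. The difference of NPCT from PCT was 1.19 ± 0.18 (SE, adjusted p = 0.00477, limma), called in all 18.

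Type VI monomers need the products of both genes and of a further chain. The ratio of Col6a1 to Col6a2 was 0.660, 0.622 and 0.667 in the controls, 0.757, 0.675 and 0.555 with NPCT and 0.732, 0.903 and 0.910 with PCT. It was higher in each PCT library than in the controls and overlapped between NPCT and each other group. The alpha 3 chain has no row with a collagen symbol. A row described as that chain, outside the 43 genes, was at 2.95, 2.59 and 2.78 FPKM in the controls and 1.22, 1.42 and 1.59 with PCT and was not called. The chains Col6a4, Col6a5 and Col6a6 were under the filter. Of these 3 Col6a6 stood highest, at 0.345, 0.267 and 0.193 FPKM in the controls, 0.453, 0.564 and 0.238 with NPCT and 0.139, 0.124 and 0.0923 with PCT.

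Of the FACIT and related genes, Col9a3, a chain of the type IX collagen known from cartilage, showed the largest fold change of the 27 genes tested, both with PCT against Control and between the peptides. Col9a3 (ENSRNOG00000009531, chr3:176102351-176124306 on the plus strand) was at 4.86, 4.74 and 5.76 FPKM in the controls, 7.99, 7.86 and 13.0 with NPCT and 0.661, 0.793 and 1.51 with PCT. All 3 groups were apart, NPCT highest and PCT lowest. In fragments this was 20 to 411 per library. With PCT it fell by 2.34 ± 0.29 (SE) on the log2 scale, 5.05-fold (limma, adjusted p = 0.00384), and NPCT against PCT gave 3.20 ± 0.29 (SE, adjusted p = 0.000552, limma), 9.18-fold. Both calls held in all 18 alternatives. With a pseudocount of 1 the log2 values were -1.64 and 2.41. NPCT against Control gave 0.86 ± 0.29 (SE, adjusted p = 0.0968, limma), which was called in 4 alternatives, one of them the omission of PCT replicate 3 (adjusted p = 0.0231).

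Of the other type IX chains, 1 passed the filter. Col9a2 was at 3.11, 3.27 and 3.48 FPKM in the controls, 4.16, 3.44 and 3.40 with NPCT and 2.78, 3.07 and 2.97 with PCT. Its PCT libraries lay below the controls by little, with a log2 fold change of -0.16 ± 0.12 (SE, adjusted p = 0.56, limma). The ratio of Col9a3 to Col9a2 was 1.56, 1.45 and 1.65 in the controls, 1.92, 2.28 and 3.84 with NPCT and 0.237, 0.258 and 0.508 with PCT. Col9a1 was under the filter at 0.291 to 0.714 FPKM. Its mean reached 0.5 FPKM in the NPCT group alone.

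Col16a1 (ENSRNOG00000031475, chr5:148257642-148311645 on the plus strand), a fibril-associated collagen, was at 14.9, 16.7 and 14.9 FPKM in the controls, 21.8, 22.7 and 21.0 with NPCT and 14.1, 14.9 and 21.6 with PCT. NPCT libraries lay above the controls, and PCT replicate 3 was at the NPCT level while the other 2 PCT libraries were at the control level. The log2 fold change was 0.49 ± 0.14 (SE, adjusted p = 0.0724, limma) with NPCT and 0.094 ± 0.14 (SE, adjusted p = 0.79, limma) with PCT. For NPCT against PCT it was 0.40 ± 0.14 (SE, adjusted p = 0.0914, limma), and 0.59 (adjusted p = 0.00157) without PCT replicate 3. The other FACIT genes tested, Col12a1, Col19a1, Col20a1 and Col22a1, lay at 0.432 to 2.84 FPKM and limma called none of them. Col22a1 had a mean of 0.457 FPKM with PCT, so that it passed the filter through the other groups, and limma-voom on the fragments called it in NPCT against PCT (0.91, adjusted p = 0.0349). Of these genes Col19a1 was above all controls with both peptides.

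**Figure D3:**
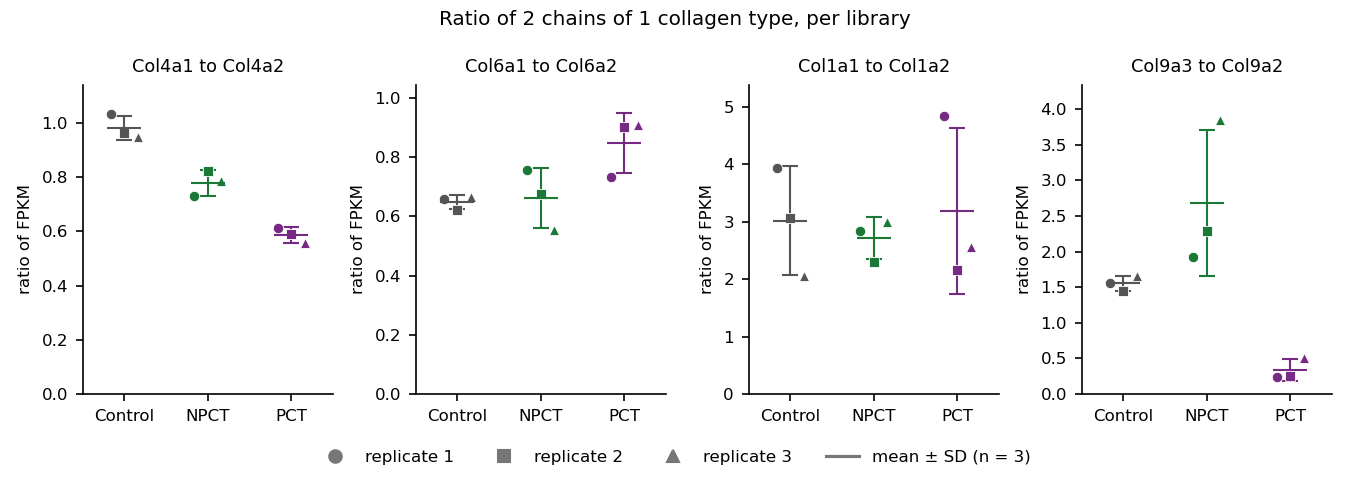
Ratio of the FPKM of 2 chains of 1 collagen type (vertical axis, from 0) in the 9 libraries, by group, with the mean ± SD (n = 3); symbols mark the replicate numbers. The ratio of Col4a1 to Col4a2 lies between 0.949 and 1.03 in Control, 0.729 and 0.822 with NPCT and 0.556 and 0.613 with PCT, whereas the ratio of Col1a1 to Col1a2 overlaps between groups.

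The fibrillar class held 1 called rise with PCT, that of Col3a1, the single chain of type III collagen. Col3a1 (ENSRNOG00000003357, chr9:52023295-52059217 on the plus strand) was at 1.98, 2.37 and 2.64 FPKM in the controls, 2.49, 2.18 and 2.16 with NPCT and 3.24, 4.92 and 5.06 with PCT. Every PCT library lay above the other 6, and NPCT and Control overlapped. With PCT it rose by 0.87 ± 0.19 (SE) on the log2 scale, 1.83-fold (limma, adjusted p = 0.0413). The call was lost in 11 of 18 alternatives, with adjusted p up to 0.161, among them the omission of any 1 control, any 1 NPCT library and PCT replicate 2 or 3. NPCT against PCT gave -0.90 ± 0.19 (SE, adjusted p = 0.0185, limma), lost without NPCT replicate 2 (0.0528), NPCT replicate 3 (0.0526) or PCT replicate 2 (0.0680) and in the fit of the 2 groups alone (0.0561).

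Type I collagen, the main fibril former, has the chains Col1a1 and Col1a2. Col1a1 was at 4.07, 4.27 and 4.07 FPKM in the controls, 4.81, 3.16 and 3.33 with NPCT and 4.22, 6.42 and 6.62 with PCT. PCT replicates 2 and 3 lay above the controls and replicate 1 inside their range, and the log2 fold change was 0.44 ± 0.20 (SE, adjusted p = 0.289, limma). Between the peptides it was -0.60 ± 0.20 (SE, adjusted p = 0.078, limma), and -0.80 (adjusted p = 0.0419) without PCT replicate 1. Col1a2 was at 1.03, 1.39 and 1.98 FPKM in the controls, 1.69, 1.37 and 1.11 with NPCT and 0.874, 2.99 and 2.59 with PCT. The 3 groups overlapped, with PCT replicate 1 the lowest library and PCT replicates 2 and 3 the highest. The ratio of Col1a1 to Col1a2 was 3.94, 3.06 and 2.06 in the controls, 2.84, 2.30 and 2.99 with NPCT and 4.83, 2.15 and 2.56 with PCT. It overlapped between all groups.

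Type V chains, which regulate fibril width, were the most abundant fibrillar transcripts. Col5a3 (ENSRNOG00000020525, chr8:21786324-21831668 on the minus strand) was at 31.4, 29.4 and 29.0 FPKM in the controls, 31.0, 34.4 and 29.0 with NPCT and 19.0, 20.9 and 25.7 with PCT. PCT libraries lay below the controls and NPCT overlapped them. The log2 fold change with PCT was -0.46 ± 0.11 (SE, adjusted p = 0.055, limma), and NPCT against PCT gave 0.53 ± 0.11 (SE, adjusted p = 0.0173, limma), a 1.44-fold difference. Without PCT replicate 3 the latter was 0.65 (adjusted p = 0.00157), past the fold threshold. Col5a2 (ENSRNOG00000003736, chr9:52092511-52238564 on the minus strand), a tail-to-tail neighbour of Col3a1 on chromosome 9 at 33293 bases, was at 10.9, 10.6 and 10.4 FPKM in the controls, 10.4, 9.98 and 8.94 with NPCT and 7.73, 9.29 and 8.74 with PCT. All treated libraries lay below the controls, whereas its neighbour rose with PCT. The log2 fold change of Col5a2 was -0.13 ± 0.092 (SE, adjusted p = 0.382, limma) with NPCT and -0.31 ± 0.092 (SE, adjusted p = 0.0994, limma) with PCT. Col5a1 was at 6.98, 7.0 and 8.03 FPKM in the controls, 9.84, 7.91 and 6.24 with NPCT and 6.29, 6.96 and 8.65 with PCT. Its groups overlapped in all comparisons.

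Type XI chains form fibrils with type II collagen in cartilage. Col11a2 (ENSRNOG00000000463, chr20:3830164-3859018 on the plus strand) was at 0.714, 0.756 and 0.844 FPKM in the controls, 1.49, 1.49 and 1.27 with NPCT and 0.385, 0.424 and 0.750 with PCT. The NPCT libraries lay above all others, and those of PCT overlapped the controls through replicate 3. Against PCT, NPCT gave 1.33 ± 0.30 (SE, adjusted p = 0.0219, limma), from 36 to 135 fragments per library. It was lost in 5 of 17 alternatives, without NPCT replicate 1 (adjusted p = 0.0755) or 2 (0.0637), without PCT replicate 1 (0.0668) or 2 (0.0685) and in the fit of the 2 groups alone (0.0637). The difference was 0.68 with a pseudocount of 1. Against Control the log2 fold change was 0.80 ± 0.30 (SE, adjusted p = 0.122, limma) with NPCT. Col11a1 was at 4.74 to 6.54 FPKM and Col27a1 at 1.46 to 2.35 FPKM, and neither was called. Col2a1 and Col24a1 were under the filter, with means of at most 0.132 FPKM in any group.

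Of the short-chain network genes only Col8a1, a type VIII chain known from vessel walls and the eye, passed the filter. Col8a1 (ENSRNOG00000039668, chr11:44877859-45007891 on the plus strand) was at 1.26, 1.61 and 1.50 FPKM in the controls, 2.00, 2.11 and 2.42 with NPCT and 0.871, 1.33 and 1.34 with PCT. The NPCT libraries were the 3 highest and PCT overlapped the controls. The log2 difference of NPCT from PCT was 0.85 ± 0.22 (SE, adjusted p = 0.0323, limma). This call was lost in 11 of 18 alternatives, with adjusted p from 0.0298 (with a pseudocount of 1, where the fold fell under the threshold) to 0.0921 in those 11, among them the omission of Control replicate 2 or 3, of any 1 NPCT library and of PCT replicate 1 or 2. Col8a2 was at 0.311, 0.320 and 0.428 FPKM in the controls, 0.443, 0.216 and 0.447 with NPCT and 0.177, 0.536 and 0.380 with PCT. Col10a1, the growth plate collagen, had at most 6 fragments per library and lies within Nt5dc1 on the other strand, which had 96 to 162 fragments. The strand setting of the counting is not given in the sources used here, so reads of these 2 genes cannot be told apart.

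The transmembrane collagens were led by Col23a1, at 2.89, 5.27 and 6.58 FPKM in the controls, 6.57, 4.89 and 9.57 with NPCT and 2.82, 4.41 and 5.81 with PCT. Its libraries spread widely within each group, from 50 to 177 fragments, and no comparison was called. Col25a1, whose product is found in amyloid plaques, was at 3.34, 3.24 and 3.46 FPKM in the controls, 3.32, 3.49 and 2.97 with NPCT and 4.06, 3.43 and 4.33 with PCT. Its log2 fold change was 0.22 ± 0.12 (SE, adjusted p = 0.378, limma) with PCT. Col13a1 had at most 4 and Col17a1 at most 5 fragments in a library. In the remaining class Col26a1 was at 1.29, 0.996 and 1.52 FPKM in the controls, 1.09, 1.35 and 1.65 with NPCT and 1.46, 1.45 and 1.41 with PCT. All groups overlapped in this gene. Col7a1, the anchoring fibril collagen, had 7 to 18 fragments and Col28a1 at most 7 per library.

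**Figure D4:**
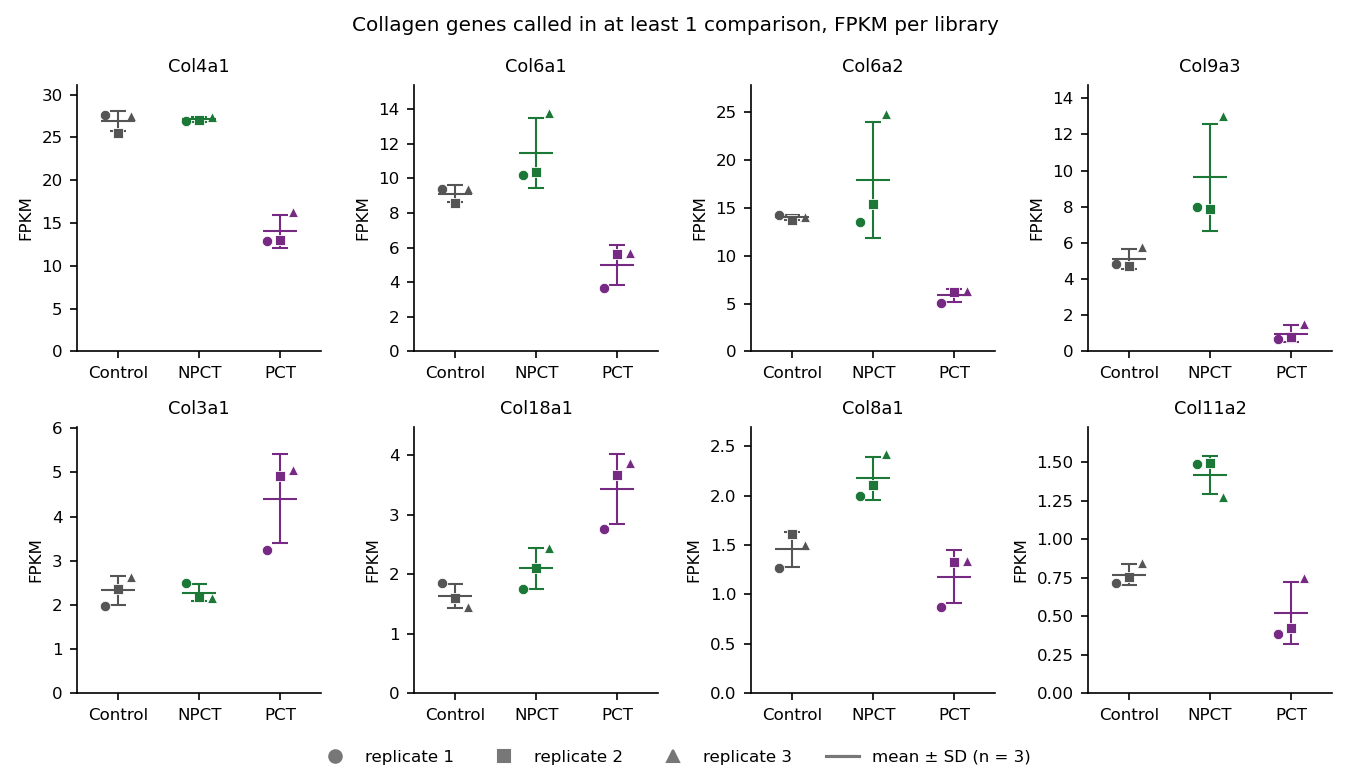
FPKM (vertical axis, from 0) in each of the 9 libraries of the 8 collagen genes called in at least 1 comparison, by group, with the mean ± SD (n = 3); symbols mark the replicate numbers. Col9a3 falls from between 4.74 and 5.76 FPKM in Control to between 0.661 and 1.51 FPKM with PCT, and NPCT replicate 3 is the highest library of Col6a1, Col6a2 and Col9a3.

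The other 16 genes were not tested because their mean was below 0.5 FPKM, from 0.0284 to 0.484 FPKM, with 0 to 67 fragments per library. The filter is on FPKM and does not follow fragments alone. Col4a4, not tested, had 44 to 67 fragments per library, whereas Col20a1, which was tested, had 34 to 61. The genes not tested were Col2a1, Col4a3, Col4a4, Col6a4, Col6a5, Col6a6, Col7a1, Col8a2, Col9a1, Col10a1, Col13a1, Col14a1, Col15a1, Col17a1, Col24a1 and Col28a1. Of these, 5 were at 0 in at least 1 library. A library with 0 fragments of a gene allows up to 3 fragments by counting error alone. For Col11a2, Col15a1, Col23a1 and Col25a1 the table holds a further row described as the same or a like chain, so the fragments of these genes may be split between rows. Such rows of Col1a2 and Col4a3 had 0 fragments in all 9 libraries.

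The 2 libraries that departed from their groups set part of these values. Relative to the mean of the 9 libraries, the median collagen gene was at 0.046 on the log2 scale in PCT replicate 3 and at -0.31 and -0.20 in PCT replicates 1 and 2. Without PCT replicate 3 the genes called numbered 4 in PCT against Control and 10 in NPCT against PCT, beside 6 and 8 with it, and 1 in NPCT against Control beside 0. Col3a1 and Col18a1 are the 2 calls that PCT against Control lost. Without NPCT replicate 3 the count in NPCT against PCT was 6. Shares of all genes called without either library are not given here, so these counts are not set against them.

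Enzymes that modify and fold collagen chains showed 1 fall with PCT in 18 genes tested, beside 1.72% of all genes. The same gene was the 1 called higher in NPCT than in PCT, beside 4.38% of all genes. Plod1, a lysyl hydroxylase, was at 21.5, 18.9 and 21.1 FPKM in the controls, 22.2, 20.7 and 25.4 with NPCT and 13.2, 13.3 and 11.8 with PCT. PCT libraries lay below all others, with a log2 fold change of -0.68 ± 0.094 (SE, adjusted p = 0.00605, limma), and NPCT against PCT gave 0.82 ± 0.094 (SE, adjusted p = 0.00182, limma). Serpinh1, the collagen chaperone HSP47, had the highest mean of the list over the 9 libraries, at 155, 151 and 157 FPKM in the controls, 189, 196 and 240.0 with NPCT and 129, 130.0 and 191 with PCT. The NPCT libraries lay above the controls, PCT replicate 3 stood among the NPCT libraries, and Serpinh1 was not called (adjusted p = 0.107 with NPCT and 0.873 with PCT, limma).

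Of 10 genes of procollagen cleavage and cross-linking tested, Loxl1, an enzyme of the lysyl oxidase family that cross-links elastin and collagen, was the 1 gene called with PCT, beside 1.72% of all genes called lower, and the 1 called in NPCT against PCT, beside 4.38% called higher. Loxl1 was at 8.78, 8.36 and 9.97 FPKM in the controls, 12.4, 10.4 and 12.4 with NPCT and 4.44, 4.71 and 5.35 with PCT. The 3 groups were apart. The log2 fold change with PCT was -0.89 ± 0.11 (SE, adjusted p = 0.00395, limma), and NPCT against PCT gave 1.26 ± 0.11 (SE, adjusted p = 0.000544, limma). Bmp1, which cleaves the carboxyl propeptide of fibrillar procollagens, was at 22.8, 21.5 and 21.5 FPKM in the controls, 28.2, 30.6 and 23.6 with NPCT and 18.4, 19.5 and 20.7 with PCT. It was highest with NPCT. NPCT against PCT gave 0.485 ± 0.096 (SE, adjusted p = 0.0141, limma), under the fold threshold, and Bmp1 was called in no comparison.

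Of 5 collagen receptors tested, Mrc2, which takes up collagen into cells, was the 1 gene called in NPCT against PCT, beside 4.38% of all genes called higher. Mrc2 was at 3.01, 3.59 and 3.10 FPKM in the controls, 4.25, 4.06 and 3.58 with NPCT and 1.93, 2.40 and 2.37 with PCT. The difference was 0.81 ± 0.14 (SE, adjusted p = 0.00924, limma). Itgb1, the shared beta subunit of the collagen-binding integrins, was the highest receptor, at 92.0, 93.5 and 82.7 FPKM in the controls, 73.5, 78.2 and 80.7 with NPCT and 94.5, 104 and 85.8 with PCT. Its NPCT libraries lay below the others. NPCT against PCT gave -0.29 ± 0.082 (SE, adjusted p = 0.045, limma), under the fold threshold, and Itgb1 was not called.

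The fibril-associated matrix list had 9 genes tested, of which 1 was called lower with PCT, beside 1.72% of all genes, and 1 higher in NPCT than in PCT, beside 4.38%. The basement membrane partners had 9 tested, with 1 called higher in NPCT than in PCT, beside 4.38% of all genes. Fmod (fibromodulin), a proteoglycan that binds fibrils, was at 6.82, 7.09 and 7.42 FPKM in the controls, 5.48, 5.99 and 6.79 with NPCT and 3.63, 4.30 and 3.62 with PCT. It was called with PCT, with -0.87 ± 0.11 (SE, adjusted p = 0.00408, limma), and NPCT against PCT gave 0.65 ± 0.11 (SE, adjusted p = 0.00918, limma). Sparc, a collagen-binding matrix protein, was the highest, at 399, 420.5 and 423 FPKM in the controls, 431, 442 and 549 with NPCT and 357, 383 and 388 with PCT. For Sparc NPCT against PCT gave 0.33 ± 0.093 (SE, adjusted p = 0.0445, limma), under the fold threshold. Lamb2, a laminin chain, was at 17.4, 15.5 and 16.1 FPKM in the controls, 17.7, 19.1 and 21.1 with NPCT and 10.9, 11.8 and 12.7 with PCT. It was called in NPCT against PCT, with 0.71 ± 0.090 (SE, adjusted p = 0.00275, limma), and in PCT against Control its log2 fold change was -0.47 ± 0.090 (SE, adjusted p = 0.0247, limma), under the fold threshold. Agrn, the highest of the basement membrane partners, was at 63.4, 62.2 and 66.2 FPKM in the controls, 69.8, 68.0 and 57.4 with NPCT and 60.2, 55.7 and 60.9 with PCT. Its PCT libraries lay below the controls, those of NPCT overlapped both, and it was not called.

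Among 13 genes of the TGF-beta pathway, which drives collagen transcription in many cells, none was called against Control. The shares of all genes called there were 0.219% with NPCT and 2.31% with PCT. In this list 3 genes were called higher in NPCT than in PCT, beside 4.38% of all genes. Tgfb1, the ligand, was at 2.28, 2.01 and 2.26 FPKM in the controls, 3.04, 2.41 and 5.26 with NPCT and 1.07, 0.723 and 1.25 with PCT. All PCT libraries lay below the others, and the difference was 1.67 ± 0.29 (SE, adjusted p = 0.00944, limma). Ltbp3, which binds the latent ligand, was at 17.0, 16.2 and 16 FPKM in the controls, 20.6, 21.7 and 18.3 with NPCT and 13.1, 12.2 and 14.0 with PCT. The difference was 0.62 ± 0.083 (SE, adjusted p = 0.00312, limma). Smad7, an inhibitor of the pathway, was at 2.09, 1.87 and 2.77 FPKM in the controls, 3.03, 3.47 and 3.53 with NPCT and 1.82, 1.67 and 2.57 with PCT. The difference was 0.72 ± 0.20 (SE, adjusted p = 0.0445, limma). Smad4, the highest of the list, was at 34.2, 33.4 and 32.8 FPKM in the controls, 28.8, 32.1 and 31.9 with NPCT and 32.9, 28.6 and 28.3 with PCT. It did not differ beyond the test in any comparison. No gene of the 6 partner lists was called in NPCT against Control, beside 0.219% of all genes tested.

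The cultures held transcripts of cells other than neurons, and several marker lists differed between the groups as well. The 14 neuron markers were all above the filter and summed to 2448 to 2548 FPKM in Control, 2358 to 2428 with NPCT and 2414 to 2633 with PCT. The NPCT libraries lay below the controls and those of PCT overlapped them. Stmn2, with the highest mean of them over the 9 libraries, was at 743, 768 and 756 FPKM in the controls, 653, 634 and 671 with NPCT and 846, 812 and 753 with PCT. Astrocyte markers, 10 of 10 above the filter, summed to 2493 to 2673 FPKM in Control, 2452 to 2712 with NPCT and 2150.1 to 2217 with PCT. With PCT 5 of the 10 fell, beside 1.72% of all genes, and none rose. In NPCT against PCT 3 were higher, beside 4.38%. Aldoc was at 325, 334 and 332 FPKM in the controls, 361, 361 and 312 with NPCT and 193, 181 and 186 with PCT. Gfap, the highest astrocyte marker, was at 828, 765 and 734 FPKM in the controls, 773, 818 and 938 with NPCT and 899, 931 and 926 with PCT. It was not called, so the list did not move as one. Others called lower with PCT were Aldh1l1 (log2 fold change -0.83), Slc1a2 (-0.73), Aqp4 (-0.64) and S100b (-0.60). Microglia markers, 13 of 13 above the filter, summed to 71.3 to 82.6 FPKM in Control, 76.4 to 236 with NPCT and 51.7 to 55.9 with PCT, the value of 236 being that of NPCT replicate 3. With PCT 4 of 13 fell, beside 1.72% of all genes, and in NPCT against PCT 8 of 13 were higher, beside 4.38%. Cx3cr1 was at 3.44, 2.38 and 2.66 FPKM in the controls, 3.13, 2.73 and 6.40 with NPCT and 0.508, 0.371 and 0.301 with PCT. The others that fell were Aif1 (log2 fold change -2.23), Tyrobp (-2.12) and Csf1r (-2.22). NPCT replicate 3 was the highest library for the microglia sum and for Col6a1, Col6a2 and Col9a3, and also for other collagen genes such as Col8a1 and Col23a1. In NPCT replicates 1 and 2 the microglia sums were 80.6 and 76.4 FPKM, inside the control range, while Col9a3 lay above the controls. A link between these values was not tested. Oligodendrocyte lineage markers, 10 of 10 above the filter, summed to 475 to 491 FPKM in Control, 517 to 553 with NPCT and 431 to 449 with PCT. No gene of this list was called, beside 0.219% of all genes with NPCT, 2.31% with PCT and 5.76% between the peptides. Of the 10 log2 fold changes with PCT 8 were above 0, with a median of 0.19, and the lower sum lay mostly in the highest gene, Olig1, whose log2 fold change was -0.51 ± 0.052 (SE, adjusted p = 0.00161, limma), under the fold threshold. Pdgfra and Cspg4 of this list are also in the fibroblast and the mural cell list.

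Markers of the cells that make most collagen in tissue were low for the main part. Of 18 fibroblast and meningeal markers 10 were under 0.5 FPKM and Aspn was listed at 0, while Fbln2, Pdgfra and Thy1, which other brain cells also express, gave most of the sum. The sum was 115 to 123 FPKM in Control, 115 to 144 with NPCT and 128 to 135 with PCT. None of the 8 markers tested was called against Control, beside 0.219% of all genes with NPCT and 2.31% with PCT. Among those not tested, Ogn (0 to 19 fragments per library) was at 0.443 to 0.481 FPKM in Control, 0.0526 to 0.108 with NPCT and 0 to 0.0860 with PCT. Foxc1, also not tested, overlapped between the groups. Fbln2 was at 29.4, 31.3 and 32.9 FPKM in the controls, 45.7, 39.5 and 21.7 with NPCT and 42.8, 42.6 and 46.9 with PCT. Fbln1 was at 10.9, 11.8 and 12.1 FPKM in the controls, 13.7, 13.8 and 13.6 with NPCT and 6.72, 11 and 7.22 with PCT. Of the 8 tested, Fbln1 was the 1 gene called in NPCT against PCT, beside 4.38% of all genes called higher, with 0.75 ± 0.16 (SE, adjusted p = 0.0185, limma). Of the 11 endothelial markers with a row, 9 were under 0.5 FPKM, Cldn5 was listed at 0 and the sum was 3.04 to 4.11 FPKM over all libraries. Egfl7, with the highest mean over the 9 libraries, was at 1.12, 1.06 and 1.09 FPKM in the controls, 1.47, 2.39 and 1.87 with NPCT and 0.880, 1.21 and 1.17 with PCT. Of 13 pericyte and smooth muscle markers 7 were under 0.5 FPKM, and the sum was 139 to 151 FPKM in Control, 89.1 to 141 with NPCT and 83.3 to 109.9 with PCT. Tagln gave most of it, at 112, 115 and 105 FPKM in the controls, 103, 99.4 and 61.1 with NPCT and 53.6, 82.8 and 72.2 with PCT. Myh11 was at 1.50, 1.44 and 1.07 FPKM in the controls, 1.61, 1.35 and 1.64 with NPCT and 0.765, 0.767 and 0.886 with PCT. Of the 6 tested, Myh11 was the 1 gene called in NPCT against PCT, beside 4.38% of all genes called higher, with 0.85 ± 0.22 (SE, adjusted p = 0.0339, limma). The part of astrocytes, microglia, mural cells and fibroblasts in the collagen differences was not tested.

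**Figure D5:**
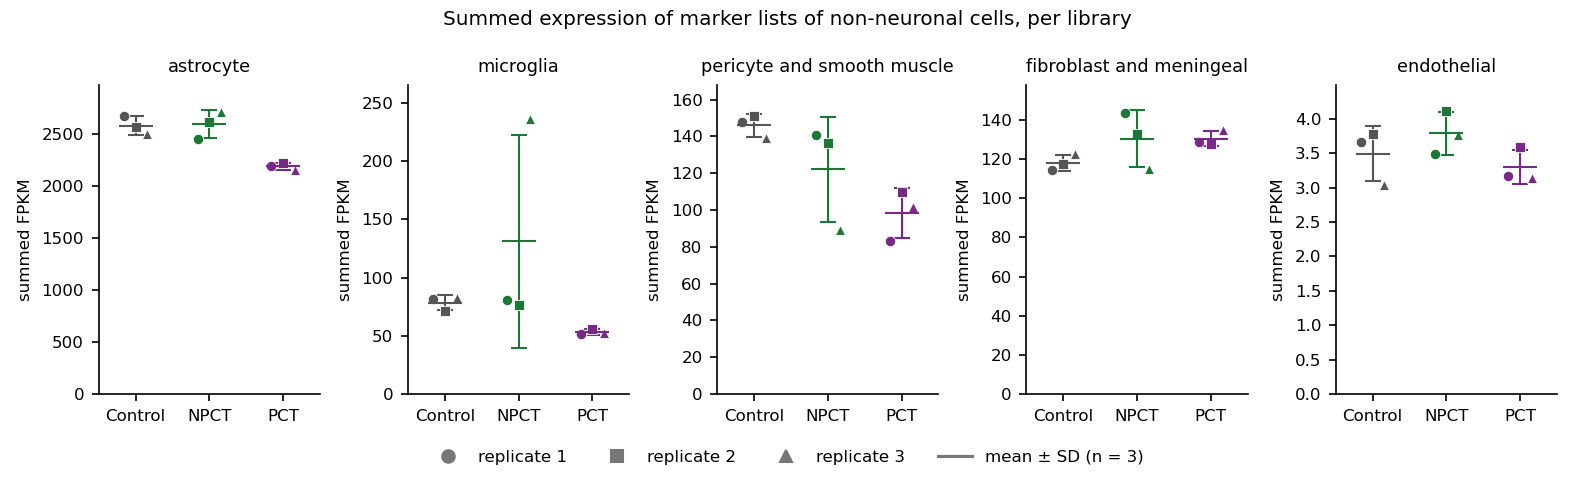
Summed FPKM (vertical axis, from 0) of marker lists of 5 kinds of non-neuronal cells in the 9 libraries, by group, with the mean ± SD (n = 3); symbols mark the replicate numbers. The PCT libraries lie lowest for astrocyte and microglia markers, NPCT replicate 3 reaches 236 FPKM for microglia markers, and endothelial markers stay at or below 4.11 FPKM.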

How the data were processed

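RNA of 9 libraries of rat hippocampal cultures was measured by poly(A)-selected RNA sequencing, 3 per group. The authors aligned reads with HISAT2 2.0.5, counted them with featureCounts 1.5.0-p3 and deposited unlogged FPKM of 34092 genes on Rnor_6.0 (submitters' processing notes). The authors tested counts with DESeq2 1.20.0. FPKM times gene length came out as whole multiples of 1 step per library in at least 99.995% of values (tolerance 0.02), which gave back the fragments. Because the unit is FPKM, log2(FPKM + 0.1) was fitted with limma 3.58.1 (R 4.3.3, intensity trend, 1 mean per group over the 9 libraries) for genes with a mean of at least 0.5 FPKM, with Benjamini-Hochberg adjustment over 15958 genes per comparison. Calls needed both an adjusted p no higher than 0.05 and more than a 1.5-fold change. Replicate numbers were not treated as pairs. The fit was also run on simulated counts, with the same spread set for every gene and no library that departed from its group. That run checks the code and does not measure error rates in these data. Sums, ratios and medians over members are descriptions with no test. Genes named were those called in a comparison, the 3 highest of each class, the chains set in ratios and, of each partner or marker list, up to 4 called genes and the one with the highest mean over the 9 libraries. Some of them are given by a range, fragments or fold change alone. Slc1a2, Ogn, Foxc1 and the type VI alpha 3 row were named after their values were seen. One gene that this rule names is not reported here. The members and lists were chosen with earlier results of these data known. The alternatives were pseudocounts of 1 and 0.01, a minimum mean of 1 FPKM or none, quantile normalization, removal of the trend with gene length, the replicate number as a block, a fit of 2 groups alone, limma-voom on fragments and the omission of each library. A reading of the adjusted p whatever the fold was added after seeing the data. The SE and SD given measure the spread between libraries, whereas the floor of 3 fragments covers counting error only. Promoter windows are from RefSeq on GRCr8. No genome and no protein sequences were used here.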

Additional observations from a re-analysis of the deposited data

How the results depend on the processing

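For NPCT against Control, where no collagen gene was called, limma-voom on fragments called 2, and the replicate block, the fit of 2 groups alone and the omission of PCT replicate 3 called 1 each, Col9a3 in every case. Leaving out each library gave 0 to 1. For PCT against Control the 6 calls became 2 to 6 when a library was left out, with 2 without Control replicate 1 or 3 and 3 without Control replicate 2 or PCT replicate 2. They became 5 with the replicate block and 4 with no filter or in the fit of 2 groups alone. For NPCT against PCT the 8 calls became 4 to 10 when a library was left out, with 5 without NPCT replicate 1 or 2, 4 without PCT replicate 2 and 10 without PCT replicate 3, and became 4 in the fit of 2 groups alone. Under the block they became 7. The block lost Col3a1 in PCT against Control and Col18a1 in NPCT against PCT. It is given here alone, since libraries of the same number did not deviate together (correlation of departures from the group means -0.072 to 0.034, against -0.051 to 0.052 for different numbers). The cause of these shifts was not tested, and the shares of all genes called under these settings are not given here. Over all collagen genes and comparisons, the omission of 1 library left the call as it was in 680 fits, removed it in 42 and added one in 7. Other settings left it in 700, removed it in 15 and added one in 5. No called fold change reversed. The median log2 fold change stayed between 0.18 and 0.31 for NPCT against Control and between 0.18 and 0.35 for NPCT against PCT, the highest value of the first being that with the gene length trend removed. For PCT against Control it lay between -0.16 and 0.0057, and only the omission of Control replicate 3 gave a value above 0. The 16 genes below the filter on FPKM had at most 67 fragments per library and were left out of the main fit.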

Other observations

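A row of the table that carries no collagen symbol is described as the collagen type VI alpha 3 chain, the third chain of type VI, with the biotype processed transcript (ENSRNOG00000019648, chr9:97926787-98004546 on the minus strand). It was chosen after its values were seen. It stood at 2.95, 2.59 and 2.78 FPKM in the controls, 2.20, 2.16 and 1.24 with NPCT and 1.22, 1.42 and 1.59 with PCT. Every treated library lay below the controls, and NPCT replicate 3, the highest library for Col6a1 and Col6a2, was among the lowest here. The log2 fold change was -0.59 ± 0.23 (SE, adjusted p = 0.131, limma) with NPCT and -0.94 ± 0.23 (adjusted p = 0.0602) with PCT, and neither was called. The row described as a collagen XXIII chain had 32 to 91 fragments per library, that of a collagen XXV-like chain 26 to 66 and that of a collagen XV-like chain 7 to 31.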
